A study of Mus musculus with 2 samples.

Results

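The cells described here are collagen-positive stromal cells of the mouse yolk sac that carry transcripts of the uroplakin genes Upk3b and Upk1b. A barcode was a member when it had at least 500 genes, at most 10% mitochondrial UMIs (unique molecular identifiers, which count captured transcripts), at least 10 UMIs of Col1a1, Col1a2 and Col3a1 together per 10000 UMIs, at least 3 UMIs of Upk3b and Upk1b together, and under 5% of its UMIs from the embryonic globins Hbb-y, Hbb-bh1 and Hba-x. Of 1634 kept barcodes 278 were members, 149 of 847 in the CKO library and 129 of 787 in the WT library. The 132 CKO and 111 WT barcodes that met every condition except the uroplakin one are called other stromal cells below.

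The study made 1 single-cell 5′ RNA library from Baf155 CKO yolk sacs and 1 from wild-type (WT) yolk sacs, both of B6 mice, to ask how the BAF chromatin remodelling complex acts in yolk sac blood development. Each library pools E9.5 and E10.5 yolk sacs in equal numbers, so no cell can be assigned to a stage. The tissue was dissociated for 30 min in 0.25% collagenase and frozen, and live cells negative for Ter119, a red cell surface antigen, were sorted. The labels speak of nuclei while the protocol describes live cells. The labels name neither the Cre driver nor the deleted exon nor how many embryos were pooled, so which cell types were meant to lose Baf155 is not known.

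Uroplakins are membrane proteins best known from the plaques that cover the bladder lining. Upk3b and Upk1b are also made by mesothelium, the thin epithelium that lines body cavities, and the mesoderm of the yolk sac is covered by such a layer on the side that faces the exocoelomic cavity. Below it lie mesenchyme, blood vessels and contractile stromal cells. Baf155, encoded by Smarcc1, is a scaffold subunit of BAF complexes, which move nucleosomes.

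Each genotype is a single library, and so differences between them are described without a test. Levels are CPM (UMIs per 1000000 over the summed UMIs of a set of cells), ranges in brackets are 95% intervals (exact Poisson for levels, exact conditional binomial for ratios, exact Clopper-Pearson for shares), and they cover counting error only. The UMIs of 1 cell are not independent, so the intervals may understate the error, and genotype, embryo pool, sort and library cannot be told apart. The CKO library held 865 barcodes and 27314411 UMIs and the WT library 815 barcodes and 24538853 UMIs, and 1 barcode sequence was shared, by no members. Members had a median of 22816 UMIs in the CKO library and 22624 UMIs in the WT library, against 21783 and 22216 UMIs in other stromal cells.

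Smarcc1 (ENSMUSG00000032481, chromosome 9, 110117708 to 110240178, plus strand, GRCm38), the targeted gene, stood at 27.2 CPM (22.2 to 32.9) in CKO members and 93.7 CPM (83.3 to 105) in WT members. The CKO over WT ratio was 0.290 (0.230 to 0.363) in members and 0.316 in other stromal cells. Smarcc1 UMIs were therefore lower in CKO members but present: the highest CKO member had 8 of them and the highest WT member 10. Of 149 CKO members 91 had 0 Smarcc1 UMIs and 20 had 2 or more, against 23 and 72 of 129 WT members.

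Members made up 17.6% (15.1 to 20.3) of kept barcodes in the CKO library and 16.4% (13.9 to 19.2) in the WT library. Of collagen-positive, globin-low cells they made up 53% (47.0 to 59.0) in the CKO library and 53.8% (47.2 to 60.2) in the WT library. Both intervals overlap between genotypes. The sort and the dissociation can set such shares.

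The uroplakin values chose the members and are given as a description. A member had a median of 9 Upk3b and Upk1b UMIs in the CKO library (highest 59) and 10 in the WT library (highest 36). The threshold cut through a continuous range of low counts: 14 CKO and 12 WT members stood at exactly 3 UMIs, while 22 CKO and 16 WT stromal cells with 2 UMIs fell outside. UMIs of both genes were seen in 118 CKO and 114 WT members, of Upk3b alone in 29 and 15, and of Upk1b alone in 2 and 0. The plot of uroplakin UMIs per cell shows a peak at 0 in both libraries and a long tail with no gap at the threshold. The collagen threshold cut less deeply, since the lowest member had 12.5 collagen UMIs per 10000 in the CKO library and 12.0 in the WT library, against member medians of 74.2 and 52.8.

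**Figure D1:**
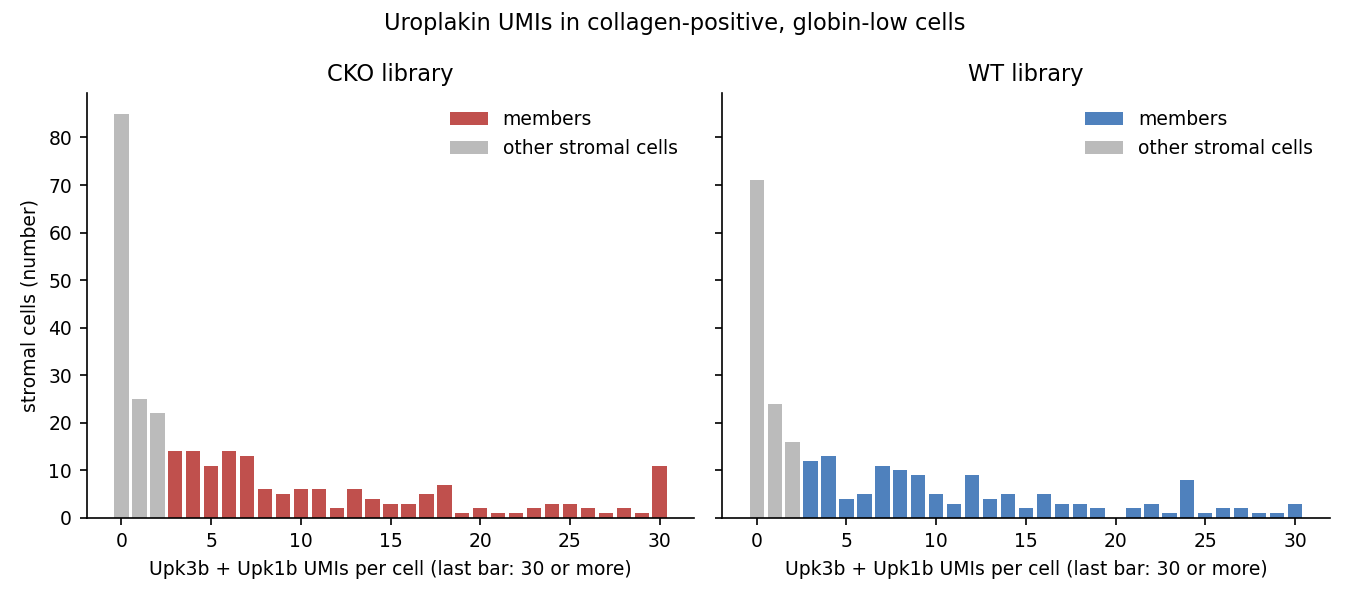
Number of collagen-positive, globin-low cells (y axis) by Upk3b and Upk1b UMIs per cell (x axis; cells with 30 or more share the last bar), in the CKO library (left) and the WT library (right). Coloured bars are members (3 UMIs or more) and grey bars other stromal cells; 85 CKO and 71 WT cells had 0 UMIs, and counts fall off without a gap at 3.

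Upk3b (ENSMUSG00000042985, chromosome 5, 136038496 to 136046487, plus strand) averaged 370 CPM (351 to 390) in CKO members and 379 CPM (357 to 401) in WT members. Upk1b (ENSMUSG00000049436, chromosome 16, 38773184 to 38800328, minus strand), a tetraspanin, averaged 116 CPM (106 to 128) in CKO members and 120 CPM (108 to 133) in WT members. The CKO over WT ratio was 0.978 (0.904 to 1.06) for Upk3b and 0.967 (0.842 to 1.11) for Upk1b, neither of which is past 2-fold. When members were split by Xist and Y-linked UMIs, the Upk3b ratio was 0.778 (0.682 to 0.889) among 54 CKO and 52 WT members with Xist alone and 1.22 (1.09 to 1.36) among 71 CKO and 67 WT members with Y-linked UMIs alone, so these small differences had opposite signs in embryos of different sex. The remaining uroplakin genes were at or near 0 in members, with 2 UMIs each of Upk1a and Upk3bl in CKO members, 0 of both in WT members, and 0 of Upk2 and Upk3a in either library.

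Of the genes proposed as markers beside the uroplakins, Gas6 was past 2-fold higher in the members of both libraries, Smoc2 in those of the WT library, and Tdo2 in neither. Gas6 (chromosome 8, 13465374 to 13494490, minus strand), a secreted ligand of the TAM receptor tyrosine kinases, stood at 137 CPM in CKO members against 64.0 CPM in other CKO stromal cells, and at 166 CPM in WT members against 68.5 CPM in other WT stromal cells. Its ratio of members over other stromal cells was 2.13 (1.81 to 2.52) in the CKO library and 2.42 (2.03 to 2.90) in the WT library. The single-cell ranges overlapped widely, since a member had between 0 and 18 Gas6 UMIs in the CKO library and between 0 and 21 in the WT library. The receptors Axl (35.4 CPM in CKO members and 19.6 CPM in WT members), Mertk (0.517 and 2.25 CPM) and Tyro3 (1.29 and 0.642 CPM) were not higher in members than in other stromal cells by 2-fold in either library. Axl was past 2-fold lower in WT members, with a ratio of 0.427 (0.307 to 0.589), against 0.938 (0.728 to 1.21) in the CKO library.

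Smoc2 (chromosome 17, 14279506 to 14404790, plus strand), a secreted calcium-binding matrix protein of the SPARC family, stood at 231 CPM (216 to 247) in CKO members and 236 CPM (219 to 254) in WT members. Other stromal cells had 147 CPM in the CKO library and 43.3 CPM in the WT library, so the ratio of members over other stromal cells was 1.57 (1.40 to 1.76) in the CKO library and 5.45 (4.44 to 6.75) in the WT library. The members of the libraries had close levels, and it was the other stromal cells whose levels differed, with 3.39 times as much Smoc2 (2.74 to 4.23) in the CKO library as in the WT library. Smoc2 UMIs were seen in 93.3% of CKO members and 88.4% of WT members, and in 3.41% of CKO and 0.645% of WT globin-rich red cells, which should lack the gene and had median depths of 34837 and 33128 UMIs. With each cell thinned to 6000 UMIs the shares were 68.5% of CKO and 66.7% of WT members, and 0.758% of CKO and 0.645% of WT globin-rich cells.

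Tdo2 (chromosome 3, 81957090 to 81976202, minus strand), which opens the tryptophan ring in the first step of the kynurenine pathway, stood at 83.6 CPM in CKO members and 238 CPM in WT members. Other stromal cells had 96.1 CPM in the CKO library and 312 CPM in the WT library, so members were not above them: the ratio was 0.870 (0.741 to 1.02) in the CKO library and 0.763 (0.689 to 0.845) in the WT library. Tdo2 was thus a gene of both stromal sets in these data. The later enzymes of the pathway, Kmo, Kynu and Haao, had between 0 and 0.642 CPM in the members of either library, and Ido1 had 0 UMIs.

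The name mesothelial was checked against defining markers of that layer, and the result was mixed. Msln, Muc16 and Gpm6a, surface proteins of adult mesothelium, and Aldh1a2, a retinoic acid synthesis enzyme of embryonic mesothelium, had 0 UMIs in the members of both libraries. Wt1, a transcription factor of embryonic mesothelium, had 4.14 CPM in CKO members and 2.25 CPM in WT members, from 16 and 7 UMIs. Against these, Bnc1, a zinc finger factor made by mesothelial and other epithelial cells, stood 2.50-fold higher in CKO members (1.65 to 3.88) and 2.46-fold higher in WT members (1.44 to 4.36) than in the other stromal cells of the same library. Lrrn4, a leucine-rich repeat membrane protein, had 65 UMIs in CKO members against 9 in other CKO stromal cells, and 12 in WT members against 1 in other WT stromal cells. The cells are therefore called by their rule, Upk stromal cells or members, and given no cell type name.

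Among epithelial genes, a few that act at the apical surface stood above their level in other stromal cells, while the median of the group differed little. Of 20 epithelial adhesion and polarity genes compared, 0 were past 2-fold in either direction in both libraries, and the median log2 ratio of members over other stromal cells was 0.12 in the CKO library and 0.01 in the WT library. Over all genes compared, 0.27% were 2-fold higher and 0.28% lower in both, so a count of 0 in lists this short says little. Of 11 mesothelial genes compared, likewise 0 were past 2-fold in both, with medians of 0.46 and 0.69. Such counts use log2 ratios with 5 CPM added to each level, so a gene past 2-fold by its plain ratio can fall short. Bnc1, for example, had log2 ratios of 0.999 in the CKO library and 0.917 in the WT library by this measure. Podxl, a sialomucin of apical membranes, stood at 183 CPM in CKO members against 91.3 CPM in other CKO stromal cells, and at 94.3 CPM in WT members against 19.4 CPM in other WT stromal cells, ratios of 2.0 (1.74 to 2.30) and 4.86 (3.56 to 6.77). Ezr, which links apical membranes to actin, had ratios of 2.35 (2.06 to 2.69) in the CKO library and 1.74 in the WT library. The keratins of simple epithelia, which are also made by early mesoderm, differed less, with ratios of 1.30 and 1.71 for Krt8 and 1.17 and 1.80 for Krt18 in the CKO and WT libraries. Krt19 had opposite signs, 0.888 (0.815 to 0.967) in the CKO library and 1.64 (1.43 to 1.87) in the WT library, and in the CKO library its log2 ratio of -0.17 turned to 0.29 when 1 uroplakin UMI sufficed for a member and to 0.13 when the other stromal cells had none.

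Across all genes with at least 20 UMIs in each library, 25 of 9274 (0.27%) were at least 2-fold higher and 26 (0.28%) at least 2-fold lower in members than in other stromal cells of both libraries, with 5 CPM added to each level and the genes of the rule left out. In single libraries 0.431% of genes were 2-fold higher and 0.507% 2-fold lower in CKO members, and 0.873% and 1.88% in WT members. The median log2 ratio over all genes compared was 0.00 in the CKO library and -0.04 in the WT library. Cells were chosen by uroplakin UMIs alone, so the genes below were not used to choose them, but they were ranked by this same contrast and their ratios are descriptions.

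The 12 genes with the highest lesser ratio of the libraries include surface, polarity and transport genes. Prkcz, the atypical protein kinase C of the apical polarity complex, stood at 26.4 CPM in CKO members against 4.80 CPM in other CKO stromal cells, and at 23.7 CPM in WT members against 4.95 CPM in other WT stromal cells. Its ratios were 5.49 (3.18 to 10.2) in the CKO library and 4.79 (2.59 to 9.70) in the WT library. Bcam, a laminin-binding adhesion receptor, stood at 158 CPM in CKO members and 142 CPM in WT members, 2.77-fold and 2.71-fold above other stromal cells. Itga3, the integrin chain of the laminin receptor of epithelia, was 2.87-fold (2.01 to 4.18) higher in CKO members and 3.27-fold (2.29 to 4.76) higher in WT members. Both laminin receptors were therefore higher in the members of either library.

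Lrp2, the endocytic receptor megalin, stood at 15.3 CPM in CKO members and 20.2 CPM in WT members, 4.77-fold and 7.0-fold above other stromal cells. Car4, a membrane-bound carbonic anhydrase, stood at 148 CPM in CKO members and 252 CPM in WT members, 3.07-fold (2.56 to 3.69) and 5.04-fold (4.16 to 6.16) above them. Kcnk1, a potassium leak channel, had ratios of 5.92 (2.94 to 13.5) in the CKO library and 3.89 (2.12 to 7.69) in the WT library. These 3 genes act in uptake or ion and acid handling at epithelial membranes. Vnn1, a GPI-anchored pantetheinase, had ratios of 3.25 and 4.45, Pcp4, a calmodulin regulator, of 2.82 and 5.48, and Sult5a1, a sulfotransferase family gene, of 2.98 and 3.11 in the CKO and WT libraries. Tmem98, a membrane protein, Wfdc2, a secreted protein with protease inhibitor domains, and Fbln5, an elastic fibre protein, lay between 2.22-fold and 3.21-fold higher in members of either library.

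The 12 genes named as lower in members include contractile, adhesion and matrix genes. Actg2, the smooth muscle gamma actin, had the lowest ratios of the 12, with 13.5 CPM in CKO members against 81.3 CPM in other CKO stromal cells, and 40.4 CPM in WT members against 582 CPM in other WT stromal cells. The ratios were 0.165 (0.120 to 0.224) in the CKO library and 0.0695 (0.0574 to 0.0834) in the WT library. Over the 16 smooth muscle markers, the median log2 ratio of members over other stromal cells was -0.70 in the CKO library and -1.57 in the WT library among the 12 compared. Of these 12, Actg2 and the cardiac actin Actc1 were 2-fold lower in both, beside 0.28% of all genes compared. The summed smooth muscle level was 3725 CPM in CKO members against 5631 CPM in other CKO stromal cells, and 3919 CPM in WT members against 10160 CPM in other WT stromal cells. Members thus had close summed levels in the libraries, while the other stromal cells had more in the WT library. The median single member had 3469 CPM in the CKO library and 2864 CPM in the WT library, against 4529 and 7161 CPM in other stromal cells. The WT member sum leans on few cells, since 1 WT member held 861 of the 5071 Acta2 UMIs. Acta2, the smooth muscle alpha actin, was still present in members, at 1395 CPM in CKO and 1627 CPM in WT members, 0.568 and 0.373 times the level in other stromal cells.

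Itga4, the integrin chain that binds VCAM1 and fibronectin, stood at 7.50 CPM in CKO members against 31.1 CPM in other CKO stromal cells, and at 4.81 CPM in WT members against 49.1 CPM in other WT stromal cells. The ratios were 0.242 (0.154 to 0.369) and 0.0980 (0.0532 to 0.168). Lmo1, a LIM-only transcription cofactor, had ratios of 0.211 in the CKO library and 0.207 in the WT library, and Cygb, a haem protein of fibroblasts and stellate cells, of 0.300 and 0.191. The laminin receptor Itga3 was thus higher and Itga4 lower in the same cells. Among matrix genes, the proteoglycan Bgn (0.359 and 0.210), the TGF-beta-induced protein Tgfbi (0.372 and 0.376), the fibril-associated collagen Col14a1 (0.370 and 0.238) and the basement membrane protein Nid1 (0.457 and 0.435) were lower in members of the CKO and WT libraries. Ifitm3, an interferon-induced membrane protein, had ratios of 0.379 and 0.306, the WNT receptor Fzd1 of 0.336 and 0.288, Selenbp1, a selenium-binding protein, of 0.423 and 0.405, and Plvap, a protein of endothelial diaphragms, of 0.348 and 0.179. The plot of members against other stromal cells shows all 24 genes with their intervals.

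**Figure D2:**
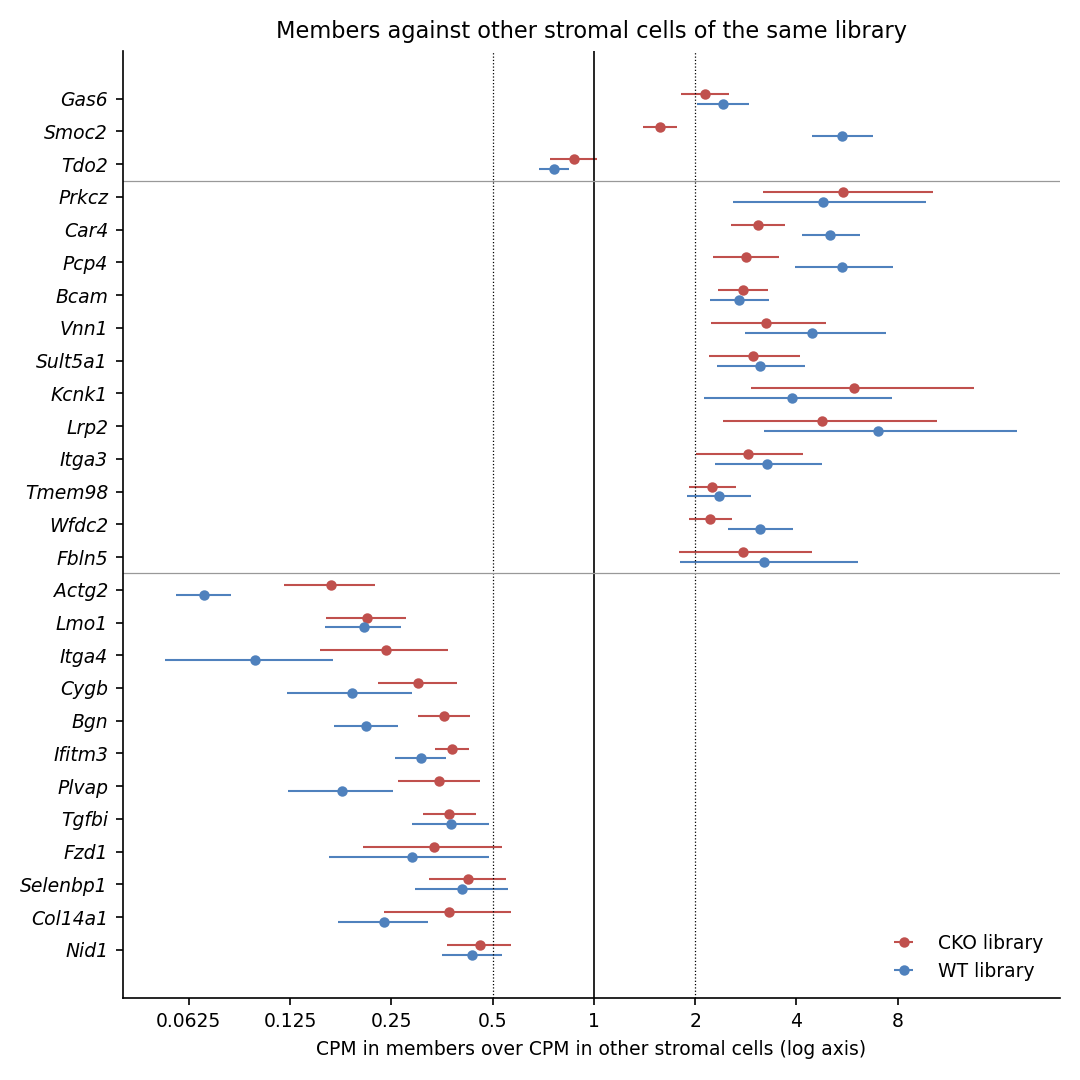
CPM in members over CPM in other stromal cells of the same library (x axis, log), with exact 95% intervals for counting error, in the CKO library (red) and the WT library (blue); dotted lines mark 2-fold. Gas6 and Smoc2 lie above 1 in both libraries and Tdo2 at 0.870 and 0.763, the 12 genes named as higher lie at 2.22 or above, and the 12 named as lower lie at 0.457 or below.

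Mesenchyme markers had close summed levels in members and other stromal cells, which a few abundant genes make up, and single markers differed. The 13 mesenchyme markers summed to 6977 CPM in CKO members against 6771 CPM in other CKO stromal cells, and to 6204 CPM in WT members against 5851 CPM in other WT stromal cells. Lum, a keratan sulfate proteoglycan, stood at 2150.5 CPM in CKO members and 2567 CPM in WT members, with members over other stromal cells at 1.13 and 1.16. The growth factor receptors Pdgfra (0.389 and 0.562) and Pdgfrb (0.626 and 0.637) and the collagen chain Col6a3 (0.572 and 0.456) stood below 1 in the CKO and WT libraries, with intervals that end below 1, and none of the 11 markers compared was past 2-fold in both libraries. Over 47 extracellular matrix genes the median log2 ratio was 0.02 in the CKO library and -0.13 in the WT library. Of these, 4 genes were 2-fold lower and 3 higher in both, beside 0.28% and 0.27% of all genes compared. The 3 higher genes were Fbln5, Thbs1 (a matricellular glycoprotein, ratios 3.06 and 3.05) and Col2a1 (5.17 and 10.9, from 32 CKO and 28 WT member UMIs).

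Several of these genes differed stepwise with the uroplakin level. The groups use the same uroplakin UMIs as the member rule, and genes such as Itga4 were ranked by that contrast. Steps between the groups are therefore partly built in and given as a description. Stromal cells of each library were put in 4 groups by Upk3b and Upk1b UMIs per 10000: 0, under 1, 1 to 4, and 4 or more, with 85, 43, 68 and 85 cells in the CKO library and 71, 31, 59 and 79 in the WT library. Smoc2 stood at 113, 183, 214 and 265 CPM along these groups in the CKO library, and at 14.9, 92.5, 167 and 280 CPM in the WT library. Gas6 stood at 53.6, 86.5, 128 and 146 CPM in the CKO library and at 46.8, 112, 127 and 188 CPM in the WT library. Both genes were thus at intermediate summed levels in groups with few uroplakin UMIs, which may mix cells of high and of low level. Itga4 ran the other way, at 39.0, 24.1, 6.19 and 3.07 CPM in the CKO library and at 59.1, 31.2, 10.1 and 2.11 CPM in the WT library. Acta2 stood at 2471, 2236, 1679 and 1188 CPM in the CKO library and at 4935, 3569, 1902 and 1391 CPM in the WT library.

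**Figure D3:**
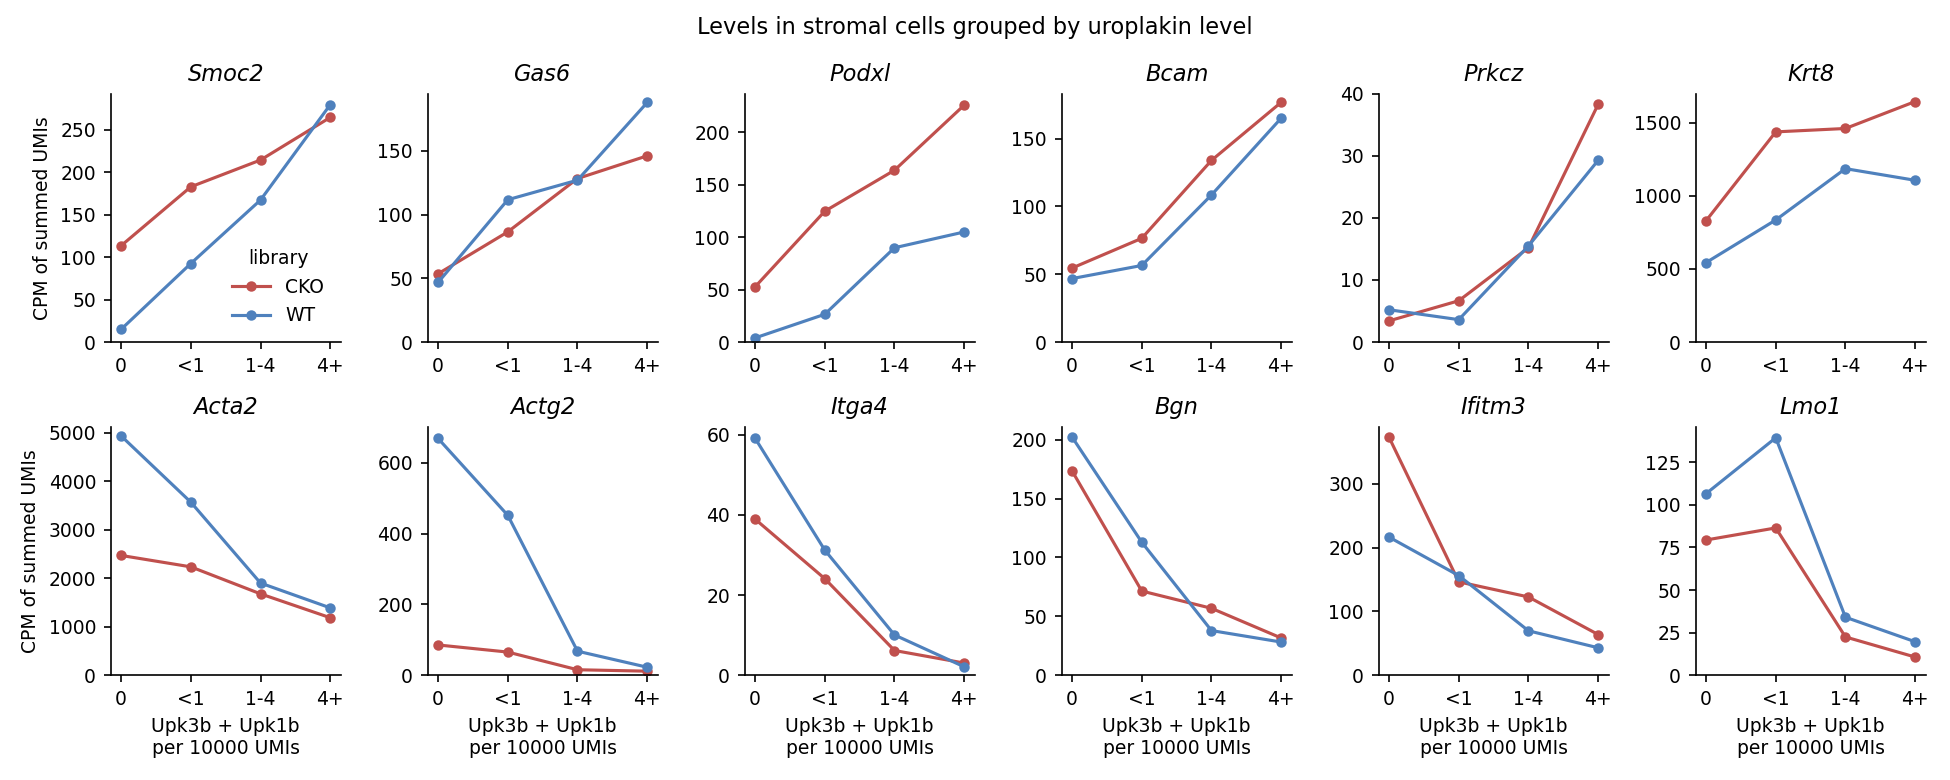
CPM of summed UMIs (y axis, from 0) in stromal cells grouped by Upk3b and Upk1b UMIs per 10000 (x axis, low to high), in the CKO library (red) and the WT library (blue). Smoc2, Gas6, Podxl and Bcam step upwards in both libraries, and Acta2, Actg2, Itga4, Bgn and Ifitm3 step downwards; Lmo1 is highest in the group under 1, and Prkcz and Krt8 break the order once in the WT library.

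Among single members the levels were only weakly related. With each cell thinned to 6000 UMIs, Spearman's rho with the uroplakin UMIs lay between -0.20 and 0.22 for 10 genes in each library (149 CKO and 129 WT cells), and rho between Upk1b and Upk3b was 0.18 in CKO members and 0.17 in WT members. In such sparse counts these values are no finding.

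Between genotypes, 227 of 10038 genes (2.26%) were at least 2-fold higher in CKO members than in WT members and 74 (0.737%) at least 2-fold lower, with 5 CPM added. In other stromal cells 2.5% of genes were 2-fold higher and 1.99% 2-fold lower in the CKO library. The median log2 ratio over all genes compared was 0.01 in members and -0.05 in other stromal cells. The comparisons of members and of other stromal cells come from the same libraries and are given side by side only. Without doublet calls 201 genes were 2-fold higher and 73 lower in CKO members.

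Red cell and platelet genes also differed between the libraries, and their part in the differences below was not tested. The 12 erythroid markers summed to 2486 CPM in CKO members against 327 CPM in WT members, and to 2393 and 359 CPM in the other stromal cells of these libraries, with a median globin share per member of 0.217% in the CKO library and 0.0262% in the WT library. Pf4, a platelet chemokine, had 1984 UMIs in CKO members and 0 in WT members, but 1934 of them lay in 2 barcodes, both called doublets by Scrublet. Without these barcodes Pf4 stood at 13.3 CPM in CKO members, and the 8 megakaryocyte markers summed to 30.6 CPM in CKO members against 1.60 CPM in WT members. Visceral endoderm markers summed to 36.0 CPM in CKO members and 58.7 CPM in WT members, macrophage markers to 31.6 and 14.8 CPM, blood progenitor markers to 46.3 and 35.6 CPM, parietal endoderm markers to 157 and 146 CPM, and neural markers to 5.95 and 4.81 CPM. The trophoblast sum of 1906 CPM in CKO members and 1572 CPM in WT members was nearly all Krt8 (1475 and 1135 CPM) and Hand1 (391 and 417 CPM), and the trophoblast genes Tpbpa, Prl3d1 and Prl2c2 had 0 UMIs. The defining genes C1qa, Ptprc and Cdh5 stood at 0, 0.259 and 1.55 CPM in CKO members and at 0.321, 0.963 and 0.321 CPM in WT members. The endothelial sum of 237 CPM in CKO members and 192 CPM in WT members was mostly Egfl7 (141 and 151 CPM), which stood at 1.86 times its level in other stromal cells in the CKO library and 1.64 times in the WT library.

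Transcription factors and regulators of the immediate early response were among the genes named as higher in CKO members. Over all genes compared, 2.26% were 2-fold higher and 0.737% lower in CKO members, shares to set beside the list counts here and below. Atf3, a stress-induced transcription factor, stood at 132 CPM (121 to 144) in CKO members and 18.6 CPM (14.1 to 24.1) in WT members, a ratio of 7.10 (5.41 to 9.49). Tnfrsf12a, the receptor of the cytokine TWEAK, stood at 78.6 CPM in CKO members and 11.2 CPM in WT members, a ratio of 7.0 (4.92 to 10.2), with 19 of its 35 WT UMIs in 1 cell. Of 25 immediate early and heat shock genes compared, 7 were 2-fold higher in CKO members and 0 lower, with a median log2 ratio of 0.49. These were Fosb (5.95), Nr4a1 (6.14), Zfp36 (4.95), Btg2 (4.56), Dusp1 (3.48), Egr1 (2.35) and Atf3, while the heat shock genes Hspa1a (0.694) and Hsp90aa1 (0.833) were below 1. Immediate early genes are also known to respond to tissue dissociation, the part of which was not tested. In other stromal cells the same list had a median of 0.22, with Atf3 at 3.59 and Fosb at 12.7.

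The remaining genes named as higher belong to several functions, and include the adult globin Hba-a1 (5.73), a red cell gene. Hist1h2ap, a replication-dependent histone, had a ratio of 7.79 (6.56 to 9.31) in members and 5.40 in other stromal cells, and Csrp2, a LIM protein of muscle and mesenchyme, of 4.13 (3.82 to 4.46) and 2.89. Pgk1, a glycolytic enzyme, stood at 230 CPM in CKO members and 47.2 CPM in WT members. Its ratio was 4.88 (4.09 to 5.85) in members and 5.85 in other stromal cells. With each cell thinned to 6000 UMIs, Pgk1 was seen in 54.5% of CKO and 13.5% of WT globin-rich red cells. Hist1h2ap was seen in 74.6% and 40.6% of them, and Csrp2 in 8.33% and 5.16%. The part of differences between the libraries that reach beyond stromal cells was not tested. Of 27 glycolysis and hypoxia genes compared, 2 were 2-fold higher in CKO members (Pgk1 and the lactate exporter Slc16a3, 2.89) and 0 lower, with a median log2 ratio of 0.43 in members and 0.79 in other stromal cells. Of 21 p53 targets, 6 were 2-fold higher and 0 lower, with a median of 0.36 in members and 0.35 in other stromal cells. They included the death gene Bbc3 (12.9 CPM in CKO members and 1.28 CPM in WT members), the death receptor Fas (ratio 5.06) and the kinase Plk2 (4.11), whereas Bax (0.705) and Ccng1 (0.990) were not higher. Btg2 is in both lists and is counted here as well as among the immediate early genes above.

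Some WNT ligand and modulator genes were higher in CKO members. Wnt2, a secreted WNT ligand, stood at 86.7 CPM (77.6 to 96.5) in CKO members and 18.6 CPM (14.1 to 24.1) in WT members, a ratio of 4.66 (3.51 to 6.26), with UMIs in 61.1% of CKO members and 25.6% of WT members. With each cell thinned to 6000 UMIs these shares were 38.3% and 10.1%, and in globin-rich red cells, unthinned, 2.65% and 0.645%. Of 30 WNT genes compared, 6 were 2-fold higher in CKO members and 0 lower, with a median log2 ratio of 0.55 in members and 0.62 in other stromal cells, and 3 lay below 0, among them the receptor Fzd2 at a ratio of 0.617 (0.532 to 0.715). The other 5 were the R-spondins Rspo1 (5.53) and Rspo3 (4.39), which strengthen WNT signals, and the inhibitors Sfrp5 (9.07), Dkk2 (2.73) and Dkk3 (3.60). Nkain4, a sodium pump-interacting protein seen in mesothelium, had a ratio of 5.71 (4.44 to 7.45) and the serine protease Prss35 of 2.47. These 2 genes and Wnt2, the markers of another stromal set, summed to 307 CPM in CKO members against 78.3 CPM in WT members, and to 322 and 73.9 CPM in other stromal cells.

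Some TGF-beta and matrix genes were also higher in CKO members. Of 35 TGF-beta and BMP genes, 5 were 2-fold higher in CKO members and 0 lower (median log2 ratio 0.20 in members and 0.18 in other stromal cells). Among them were the ligands Tgfb1 (3.40), Tgfb3 (3.84) and Bmp2 (2.79) and the activin antagonist Fst, at 50.4 CPM in CKO members, where 54 of its 195 UMIs came from 1 cell, and 4.17 CPM in WT members. Bmp4, at 66.0 CPM in CKO members and 96.6 CPM in WT members, was not. Of 48 matrix genes, 7 were 2-fold higher and 0 lower, with a median log2 ratio of 0.33 in members and 0.15 in other stromal cells. They included Postn, a matricellular protein, at 1383 CPM in CKO members and 570 CPM in WT members (2.43), and Cyr61 (2.08) and Ctgf (2.66), which are induced by stretch and serum.

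Tdo2 was among the 12 genes named as lower in CKO members. Its CKO over WT ratio was 0.350 (0.307 to 0.400) in members and 0.307 in other stromal cells, and a member had a median of 0 Tdo2 UMIs in the CKO library (highest 36) and 4 in the WT library (highest 35). Tdo2 UMIs were seen in 40.3% (32.3 to 48.6) of CKO members and 80.6% (72.7 to 87.1) of WT members. They were also seen in 3.41% of CKO and 0 of 155 WT globin-rich cells, which allows a share of up to 1.94% in the latter. After thinning to 6000 UMIs the shares were 14.1% of CKO and 58.9% of WT members, and 0.758% of CKO globin-rich cells. The ranges of single cells overlapped. Both sexes gave the same direction, with a ratio of 0.490 (0.404 to 0.592) in Xist-positive members and 0.222 (0.175 to 0.279) in members with Y-linked UMIs. These are parts of the same members and libraries and not replicates.

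Hes1, a transcriptional repressor induced by NOTCH, stood at 111 CPM (101 to 123) in CKO members and 367 CPM (346 to 389) in WT members, a ratio of 0.304 (0.271 to 0.340) in members and 0.355 in other stromal cells. Anxa1, a phospholipid-binding protein that limits inflammation, had a ratio of 0.195 (0.137 to 0.272), at 11.4 CPM in CKO members and 58.4 CPM in WT members, of whose 182 UMIs 54 came from 1 cell. Nkx2-3, a homeobox factor of gut and spleen mesoderm, had ratios of 0.343 in members and 0.395 in other stromal cells, Lgi2, a secreted leucine-rich protein, of 0.180 and 0.282, and Tnnt3, a troponin, of 0.298 and 0.215. Wtip, a LIM protein of cell junctions (0.285), and Hnrnpa0, an RNA-binding protein (0.321), were lower in members. So were Ppp1r14b, a phosphatase inhibitor (0.335), and Ube2m, a neddylation enzyme (0.385). In other stromal cells these genes stood at 0.299, 0.299, 0.350 and 0.343, in that order. With each cell thinned to 6000 UMIs, Hnrnpa0 was seen in 19.7% of CKO and 65.2% of WT globin-rich red cells. Ppp1r14b was seen in 34.1% and 79.4% of them, Ube2m in 32.6% and 83.9%, and Wtip in 0.379% and 0.645%. The part of differences between the libraries that reach beyond stromal cells was not tested. Cmtm8, a membrane protein of the chemokine-like factor family, was the gene of the 12 whose ratios lay on opposite sides of 1, at 0.316 (0.238 to 0.415) in members and 2.23 in other stromal cells. The 11 higher genes other than Pf4 and all 12 lower ones, Smarcc1 among them, had the same direction in members with Xist alone and in members with Y-linked UMIs alone. The genes were ranked over these same members, so the shared direction is a description and no separate support.

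**Figure D4:**
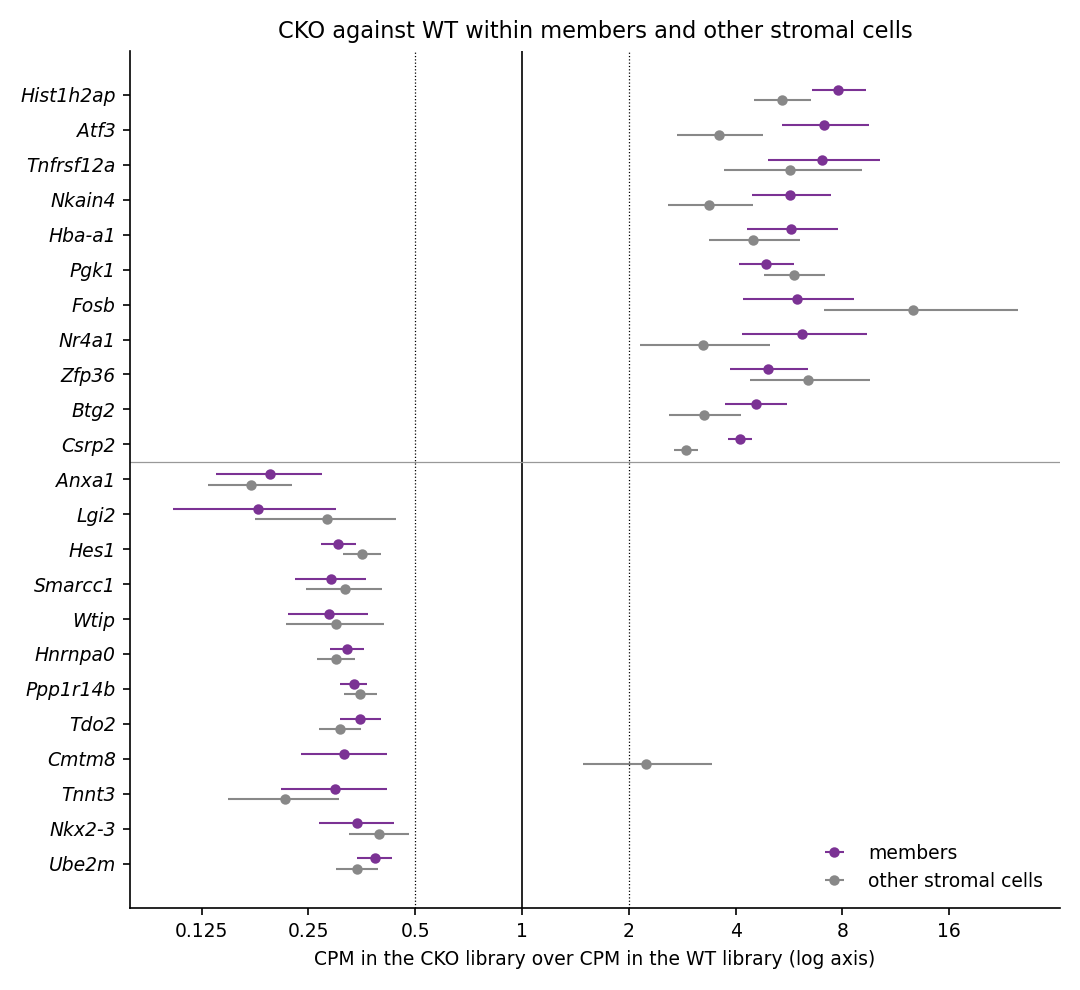
CPM in the CKO library over CPM in the WT library (x axis, log) for 23 genes named in this contrast, in members (purple) and in other stromal cells (grey), with exact 95% intervals for counting error; dotted lines mark 2-fold. The upper 11 genes lie at 4.13 or above and the lower 12 at 0.385 or below in members; Cmtm8 is the gene whose grey point (2.23) lies on the other side of 1. Pf4 is left out because WT members had 0 UMIs.

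Genes of cell division had lower levels in CKO members, most of them by less than 2-fold. All 32 G2 and mitosis genes compared had log2 ratios below 0, with a median of -0.45 in members and -0.24 in other stromal cells, and 3 were 2-fold lower: the kinase Aurka (0.439), the kinesin Kif23 (0.394) and the spindle protein Nusap1 (0.450). Their summed level was 4604 CPM in CKO members and 6548 CPM in WT members, and the median single member had 3880 CPM in the CKO library and 5652 CPM in the WT library, with the ranges (132 to 13704 CPM and 386 to 21911 CPM) overlapping. Of 30 S phase genes 22 were below 0, none past 2-fold in either direction, with a median of -0.20 in members and -0.44 in other stromal cells. Of 24 BAF genes only Smarcc1 was past 2-fold, and the median was -0.13, with Smarca4, the ATPase, at 1.10 and Smarcb1, a core subunit, at 0.808. The plot of list medians sets these lists beside each other.

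**Figure D5:**
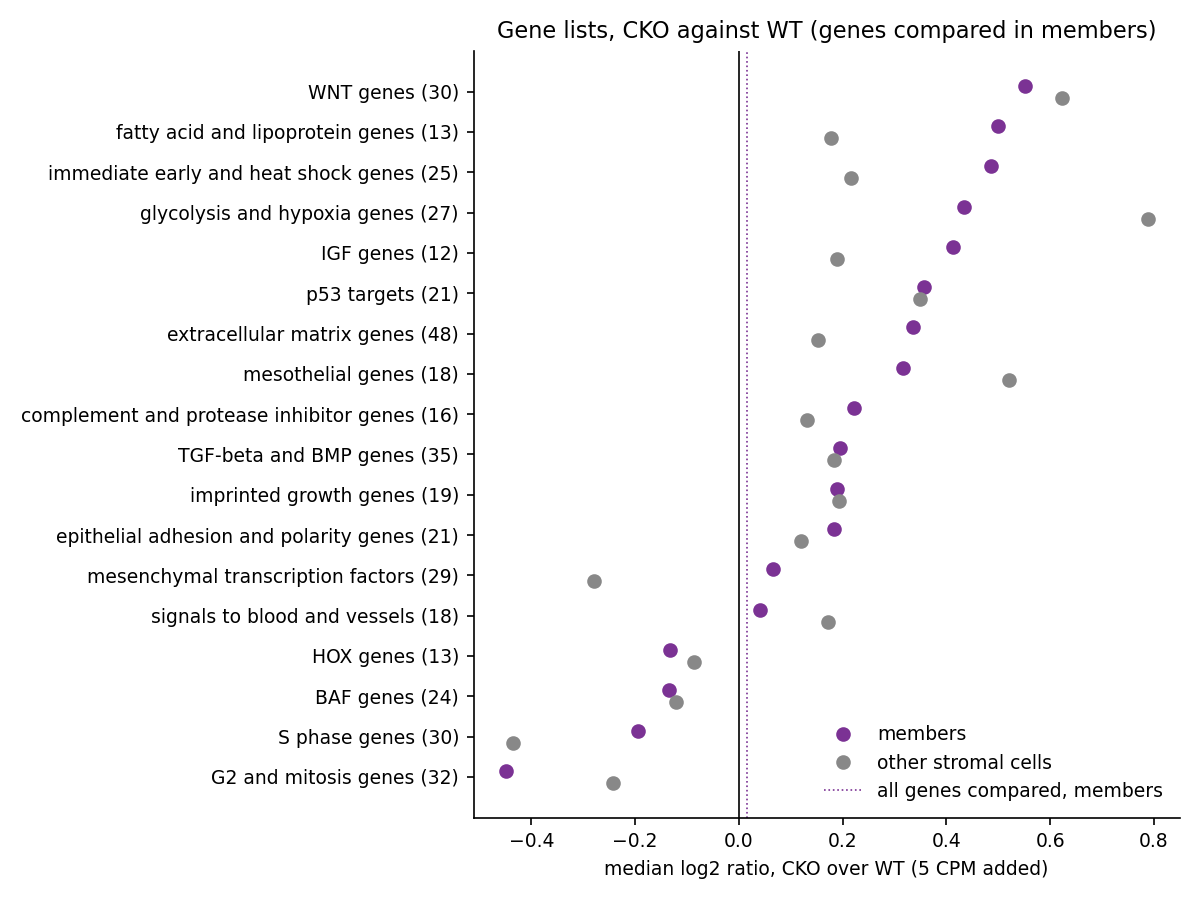
Median log2 ratio of CKO over WT with 5 CPM added (x axis) for the gene lists with 10 or more genes compared (y axis, number compared in members in brackets), in members (purple) and in other stromal cells (grey). WNT genes have the highest median in members (0.55) and G2 and mitosis genes the lowest (-0.45); the dotted line is the median of all genes compared in members (0.01).

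Of the 12 genes named as higher in members than in other stromal cells, none was past 2-fold between CKO and WT members: Car4 had the lowest ratio, 0.588 (0.527 to 0.656), and Tmem98 the highest, 1.42 (1.24 to 1.63). Prkcz stood at 1.11 (0.816 to 1.52) and Bcam at 1.11 (0.983 to 1.26), and Gas6 at 0.825 (0.729 to 0.933). Of 18 mesothelial genes compared, 4 were 2-fold higher in CKO members (Lrrn4, 4.37; Rspo1; Nkain4; and the semaphorin receptor Plxna4, 4.09), 1 was lower (the keratin Krt7, 0.151), and the median log2 ratio was 0.32 in members and 0.52 in other stromal cells. Podxl stood at 1.94 (1.69 to 2.23) in members and 4.70 in other stromal cells.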

How the data were processed

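The deposited files are 1 matrix per library of UMI counts per gene and barcode, which the authors made with Cell Ranger and GRCm38 and analysed with Seurat, per the submitters' processing notes; no version of these tools is named there. The matrices list 33456 genes, of whose IDs 97.9% matched the mouse GENCODE annotation M21, the source of coordinates. Of IDs that share a symbol (109 repeats) the one with most UMIs kept it. UMIs were summed over the cells of a set and divided by the set's total. Genes with at least 20 UMIs over the sets compared were called past 2-fold on the log2 scale with 5 CPM added. Named genes needed 100 UMIs and, in the higher set, UMIs in 25% of cells. The 12 highest and 12 lowest per contrast were named, without ribosomal, mitochondrial, predicted and sex-linked genes, beside list genes past 2-fold or abundant. A few further genes are families or defining markers, and some list genes are not reported here. Members, the 36 gene lists and the rules were chosen with earlier results of these data known, and 11 list genes had no matching symbol. Scrublet called 6 CKO and 3 WT barcodes doublets, among them 2 CKO and 0 WT members, which were kept in the main values. On simulated data for the 10038 genes of the CKO over WT members comparison, 100% of genes set 4-fold higher and 99% set 4-fold lower passed 2-fold, and 96.5% of intervals held the set ratio. The simulated sums were Poisson counts without spread between cells or libraries. They check the calculation only and cannot show how well the intervals hold in real cells. Scripts ran on Python 3.11.15 with numpy 2.4.6, scipy 1.17.1, pandas 2.3.3 and scanpy 1.11.5. Alternatives to the member thresholds, the added CPM, the scaling, the UMI minimum, the weighting of cells, doublets and the sex of cells were run.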

Additional observations from a re-analysis of the deposited data

Results flagged for a closer look

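Some genes had ratios on opposite sides of 1 in the sets or libraries compared, and these differences were not tested. Cmtm8 had a CKO over WT ratio of 0.316 in members and 2.23 in other stromal cells, and a ratio of members over other stromal cells of 0.629 in the CKO library and 4.45 in the WT library. Klf2, a flow-responsive transcription factor, had a CKO over WT ratio of 2.54 in members, where 31 and 16 of 145 CKO UMIs lay in 2 cells, and 0.498 in other stromal cells. Id3, a target of BMP signals, had CKO over WT ratios of 0.833 in members and 2.66 in other stromal cells. Actc1, the cardiac actin, had CKO over WT ratios of 12.4 in members, with 42 of 46 CKO UMIs in 1 cell and 3 UMIs in WT members, and 0.339 in other stromal cells.

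Apoe, a lipoprotein carrier, had a ratio of members over other stromal cells of 0.419 in the CKO library and 1.41 in the WT library. Prss35 had ratios of 0.745 in the CKO library and 3.34 in the WT library, with 16 and 14 of its 116 WT member UMIs in 2 cells.

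At least 3 uroplakin UMIs were also seen outside the members, in 5 CKO and 4 WT barcodes with 4 to 27 and 4 to 26 such UMIs. All of these fell under the collagen limit, with 0.548 to 8.83 collagen UMIs per 10000 in the CKO library and 0.351 to 9.90 in the WT library, and had 18241 to 79234 and 18183 to 42059 UMIs in all.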

How the results depend on the processing

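No paired analysis was possible because each genotype is 1 library and the labels carry no replicate numbers, and for the same reason no library could be left out. With 1 uroplakin UMI enough for a member, members made up 23.1% of CKO and 21.5% of WT barcodes, and with 5 needed, 14.3% and 13.2%. With 1 CPM added in place of 5, 527 genes were 2-fold higher and 208 lower in CKO than in WT members, the main 227 and 74 genes among them, and 49 were higher and 58 lower in members than in other stromal cells of both libraries. Genes lower in CKO members numbered 116 by the mean of single cells and 187 among members with Y-linked UMIs alone. Of the main 227 higher and 74 lower genes, 181 and 65 were called among these members, and 117 and 31 among members with Xist alone, where 205 genes were higher and 77 lower. Genes higher in members numbered 16 with 5 uroplakin UMIs needed and 43 against other stromal cells with none. The median log2 ratio of members over other stromal cells for Wnt2, Nkain4 and Prss35 in the CKO library was 0.14 with 1 uroplakin UMI enough and 0.035 with 1 per 10000 needed, against -0.28 in the main values, and for HOX genes in the WT library -0.11 with no UMI minimum, against 0.49; the cause was not tested. The other 52 values of these shares and counts under the alternatives stayed within their interval or within 1.5 times the main count. Depth limits genes of few UMIs, such as Wt1 and Lrrn4.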

Other observations

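Further gene groups of members can be described. Over all genes compared, 2.26% were 2-fold higher and 0.737% lower in CKO members. Lists with 1 or 2 genes past 2-fold are given beside these shares as a description only. Of 12 insulin-like growth factor genes compared, 2 were 2-fold higher in CKO than in WT members and 0 lower (median log2 ratio 0.41): Igf1, a growth factor, with 44 UMIs in CKO members and 6 in WT members, and Igfbp5, a binding protein (2.23). Igfbp2, another binding protein, stood at 1.68 times its level in other stromal cells in CKO members and 2.72 times in WT members. Of 9 retinoid genes, 2 were higher and 0 lower (median 0.38), namely Cyp26a1, which degrades retinoic acid (77 UMIs in CKO members and 11 in WT members), and the receptor Rarg (3.09). The 13 fatty acid and lipoprotein genes compared had a median of 0.50, and Fabp5, a fatty acid carrier, stood at 635 CPM in CKO members and 165 CPM in WT members.

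The 16 complement and protease inhibitor genes compared had a median of 0.22, with 4 of them 2-fold higher and 2 lower in CKO members. Serping1 (3.36), Cd55 (3.71) and Cd59a (3.13), which restrain complement, were among the 4 higher genes, and the protease inhibitors Serpine2 (0.403) and Spint2 (0.377) were 2-fold lower. Of 29 mesenchymal transcription factors, 2 were higher, Klf2 and Klf4 (3.38), and 0 lower (median 0.07). For Klf2, 31 and 16 of 145 CKO UMIs lay in 2 cells. Hand1, a factor of extraembryonic mesoderm, stood at 391 CPM in CKO members and 417 CPM in WT members, and Foxf1, a factor of the lateral mesoderm, at 148 and 241 CPM. Of 13 HOX genes compared, Hoxc10 was higher (37 UMIs in CKO members and 5 in WT members), and the median was -0.13. Hoxb2 stood at 2.15 and 2.05 times its level in other stromal cells in the members of the CKO and WT libraries. Of 19 imprinted growth genes, Ndn (2.54) was higher and Phlda2 (0.341) lower in CKO members (median 0.19). Phlda2, which restrains placental growth, was also lower in members than in other stromal cells, at 0.230 times in the CKO library and 0.250 times in the WT library. Of 18 genes for signals to blood and vessels, 0 were higher and 2 lower in CKO members (median 0.04), Ptn (0.397) and Ccl2, 69 of whose 75 WT UMIs lay in 1 cell, while Cxcl12, which retains blood progenitors in their niche, stood at 46.6 CPM in CKO members and 47.2 CPM in WT members.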
